A study of Mus musculus with 22 samples.

Results

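Otx2 and 8 further genes of the photoreceptor programme were followed in maps of H3K27me3, the histone mark that Polycomb repressive complex 2 (PRC2) lays down. The members are the peaks that the deposited annotation assigns to Otx1, Otx2, Crx, Nrl, Nr2e3, Prdm1, Thrb, Rxrg or Gnat1, together with every peak overlapping chromosome 14 from 48.4 to 48.92 Mb (mm10), the domain around Otx2. This gave 27 of the 19034 peaks. Of these, 13 were assigned to member genes and 15 lay in the Otx2 domain, with the Otx2 peak counted in both. Of the 9 genes, 7 had a peak. Crx and Nr2e3 had none.

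The marks were mapped by CUT&RUN, in which a nuclease guided by an antibody releases the DNA beside marked nucleosomes, in the retinas of 10 C57BL/6 mice at embryonic day 18.5. Both retinas of an animal made 1 sample, so all retinal cell types were measured together. The 5 conditional knockouts (cKO) were Jarid2 fl/fl; Rx-cre. Among the 5 controls, replicate 1 was Jarid2 fl/+; Rx-cre and so carried Cre, replicates 2, 4 and 5 were Jarid2 fl/+, and replicate 3 was Jarid2 fl/fl. The protocol names the driver as Rax-CreERT2, which is active in retinal progenitors, and gives tamoxifen to the pregnant females at 75 µg per g at E10.5. The same protocol describes controls as Jarid2 fl/fl, which differs from the sample labels used here. Every animal thus carried at least 1 floxed allele, and the mothers of controls and of cKO alike were treated with tamoxifen. How far Jarid2 was deleted was not measured here. Batch 1 held 2 animals of each genotype and both sexes, and batch 2 held 3 male littermates of each genotype.

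Jarid2 is an accessory subunit of PRC2 that helps to bring the complex to chromatin, where H3K27me3 is associated with genes that are kept silent. Otx2 is a homeobox factor that retinal precursors switch on when they become photoreceptors or bipolar cells, and it activates its relative Crx and, with others, Prdm1. Nrl and its target Nr2e3 direct precursors to the rod fate, Thrb and Rxrg act in cones, and Gnat1 is the rod transducin subunit.

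The start sites show how differently these genes sit relative to the mark. Promoters here are RefSeq windows (GRCm38.p6) from 250 bases before to 50 bases after a start site, and 7 of the 9 genes matched, with 12 windows. Otx1 and Gnat1 are named only, although the deposited annotation places a peak of each at a start site. Peaks covered 5 of the 12, the 4 Otx2 windows and 1 of the Rxrg windows. The sequences below are written 5′ to 3′ along the gene's strand, with each CG dinucleotide in capitals, since such sites are common in promoters marked by PRC2. They show 2 windows under the Otx2 peak, the window under the Rxrg peak, the outer Thrb window, and the Crx window as the contrast without any peak.
Otx2 (chr14:48665060-48665359, minus strand): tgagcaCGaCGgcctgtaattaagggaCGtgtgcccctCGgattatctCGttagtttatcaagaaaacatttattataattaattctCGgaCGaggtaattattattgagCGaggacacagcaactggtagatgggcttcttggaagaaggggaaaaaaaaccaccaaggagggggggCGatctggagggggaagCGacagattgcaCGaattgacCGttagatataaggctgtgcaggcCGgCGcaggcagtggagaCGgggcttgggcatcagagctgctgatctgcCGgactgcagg
Otx2 (chr14:48667595-48667894, minus strand): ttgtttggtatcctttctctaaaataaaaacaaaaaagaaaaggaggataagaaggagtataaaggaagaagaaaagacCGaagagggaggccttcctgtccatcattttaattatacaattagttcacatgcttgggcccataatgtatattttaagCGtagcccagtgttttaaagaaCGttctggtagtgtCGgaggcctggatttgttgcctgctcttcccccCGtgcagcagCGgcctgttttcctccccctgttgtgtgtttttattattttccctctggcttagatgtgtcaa
Rxrg (chr1:167598112-167598411, plus strand): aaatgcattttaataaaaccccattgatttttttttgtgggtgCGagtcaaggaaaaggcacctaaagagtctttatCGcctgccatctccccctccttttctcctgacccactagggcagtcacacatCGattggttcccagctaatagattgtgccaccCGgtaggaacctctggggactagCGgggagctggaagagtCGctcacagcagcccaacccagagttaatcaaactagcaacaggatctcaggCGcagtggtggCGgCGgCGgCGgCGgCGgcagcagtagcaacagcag
Thrb (chr14:17660710-17661009, plus strand): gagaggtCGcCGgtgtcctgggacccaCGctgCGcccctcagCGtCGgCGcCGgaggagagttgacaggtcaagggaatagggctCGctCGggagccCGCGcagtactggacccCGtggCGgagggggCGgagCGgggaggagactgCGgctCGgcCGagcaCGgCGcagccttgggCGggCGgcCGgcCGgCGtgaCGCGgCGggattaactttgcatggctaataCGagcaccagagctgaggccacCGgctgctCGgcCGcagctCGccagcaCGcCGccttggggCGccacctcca
Crx (chr7:15879906-15880205, minus strand): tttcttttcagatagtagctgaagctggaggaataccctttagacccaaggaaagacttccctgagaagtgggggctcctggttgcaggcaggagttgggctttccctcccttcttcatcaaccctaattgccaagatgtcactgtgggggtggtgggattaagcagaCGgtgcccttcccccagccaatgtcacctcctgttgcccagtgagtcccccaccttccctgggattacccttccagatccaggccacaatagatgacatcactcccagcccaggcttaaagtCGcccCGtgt

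The first Otx2 window shown held 16 CG sites and the second, the outermost, 6, against 13 in Rxrg, 37 in Thrb and 3 in Crx. The Otx2 windows not shown held 8 and, at the innermost start, 11. Over 32851 RefSeq windows the median was 7 CG sites, with 13 in the 4772 windows under a peak and 6 in the others. The Thrb window was the richest in CG of the 12 and lay outside the called peak, whose edge began 781 bp downstream. The Prdm1 window, at the inner start, and the Nrl window, with 20 and 2 CG sites, lay 229 and 653 bp from the nearest peak. The outer Prdm1 start had no window here, and an 11.7 kb peak lies over it. The letters TAATCC, the core bound by homeobox proteins of the Otx family, were searched on both strands. They occurred at 2 places in the Crx window, offsets -94 and -21 from the start, at offset -46 in Thrb and at offset -211 in the first Otx2 window shown. All 4 matches were on the strand opposite to the gene. This motif was present in 7.06% of all windows, and a match describes the letters, not binding.

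Animals held 1688368 (control replicate 2) to 2864080 (control replicate 3) reads in peaks. Levels are in CPM, a peak's reads relative to the animal's TMM-scaled total, as mean ± SD over 5 animals, and differences as log2 fold change (cKO over control) ± SE. Of the 16307 peaks tested, 1204 (7.38%) were lower in cKO and 238 (1.46%) higher (edgeR quasi-likelihood test with batch as a term, adjusted p under 0.05). The total count in place of TMM lowered the share of lower calls among all calls from 83.5% to 68.4%, and it moved the median log2 fold change of all peaks from 0.022 to 0.068. With DESeq2 the share was 96.8%. As a check of the tissue, 5 of 9 genes expressed across the retina had a peak, with at most 126 CPM in controls (Lhx2). Rax, Six3, Six6 and Sox2 had none. Of 13 genes of other lineages 8 had one, with up to 2413 CPM (Hand2). In control CPM per kb of peak the medians were 6.36 and 27.7.

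H3K27me3 was lower in cKO over Otx2 and over most peaks of its domain, and over Otx1, while the peaks of Prdm1, Nrl, Thrb, Rxrg and Gnat1 were not called. All 27 members passed the filter on low counts. Of these, 12 were lower and 0 higher in cKO (edgeR adjusted p under 0.05), against 7.38% and 1.46% of all peaks. In the direction of higher signal, 1 member, Gnat1, had an unadjusted p under 0.05, and DESeq2 and limma-voom called none higher. Of the 12, 9 stayed called under scaling by total count and 8 with DESeq2, and with no batch term 3 did. The domain held 10 of the 12 lower peaks, among its 15, and Otx1 held the other 2, among its 3. The median log2 fold change was -0.31 in the domain and -0.043 over the 12 members outside it, against 0.022 over all peaks. With the Otx1 peaks also left out, it was 0.039 over the 9 peaks of the other member genes. Each of the 5 cKO animals was under the mean of its own batch's controls at 14 of the 27 members, against 16.5% of all peaks. The genotypes did not overlap at 4 members, all with cKO lower, against 1.97% of all peaks. Neighbouring peaks of a domain are not independent. In whole retina, fewer cells with the mark and less mark per cell cannot be told apart.

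**Figure D1:**
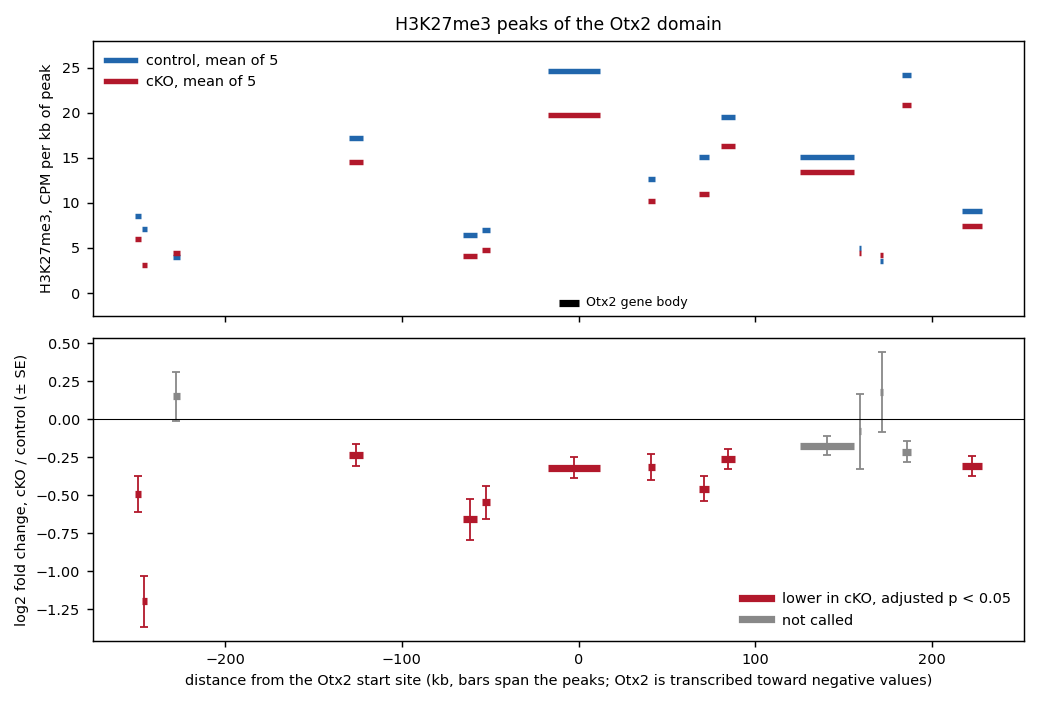
H3K27me3 peaks within the Otx2 domain. The upper panel gives mean CPM per kb of peak in 5 control (blue) and 5 cKO (red) animals, and the lower panel the log2 fold change with its SE (red, called lower; grey, not called), both against distance from the Otx2 start site in kb. The control bar is above the cKO bar at 13 of the 15 peaks, and 10 are called lower.

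The Otx2 peak (chr14:48650190-48679810, 29.6 kb) spans the whole 10.9 kb gene body (chr14:48656781-48667644) and also part of Otx2os1, a transcript from the opposite strand. It held 756, 808, 759, 721 and 613 CPM in control replicates 1 to 5. In cKO replicates 1 to 5 it held 567, 612, 602, 605 and 540.4 CPM. The highest cKO animal was just under the lowest control, 612 against 613 CPM, so the genotypes did not overlap. The means were 731 ± 72.9 CPM in controls, against 585 ± 30.7 CPM in cKO, a log2 fold change of -0.32 ± 0.07 (edgeR adjusted p = 0.00409), so the signal fell 1.25-fold. Otx2 has 1 assigned peak, so its sum per gene holds the same reads and is no separate evidence. Summed per gene, with the adjustment over 11324 genes, Otx2 gave -0.33 ± 0.07 (edgeR adjusted p = 0.00222). In that test 939 genes (8.29%) were lower and 168 (1.48%) higher. Exchanging animals within batches, an exact permutation test (two-sided) gave p = 0.0167, the smallest that its 120 arrangements can give. The peak was -0.41 ± 0.075 in batch 1 and -0.27 ± 0.095 in batch 2, and neither batch alone passed (edgeR adjusted p = 0.168 and 0.0749).

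For comparison, among the 215 peaks within 0.5 log2 units of the Otx2 level, the median log2 fold change was -0.039, 19 (8.84%) were lower and 0 were higher by the same edgeR call. The share of all CPM in the 387 peaks with at least 400 CPM ran from 26.8% to 36.5% in controls and from 28.1% to 32.9% in cKO. A loess offset, which scales each animal by the level of the peak, was chosen after seeing the data. With it the Otx2 peak had -0.27 ± 0.036 (edgeR adjusted p = 7.0e-05), and Otx2 summed per gene had -0.26 ± 0.037 (1.6e-04). The part of that share of CPM in the Otx2 result was not tested.

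The Otx2 peak stands in a row of 15 peaks from -249 to 223 kb, where negative positions are on the side toward which Otx2 is transcribed. Summed over the domain, animals held 1836 to 2118 CPM in controls, against 1530 to 1745 CPM in cKO. The means were 2008 ± 117 and 1647 ± 88.0 CPM, so cKO held 82.0% of the control signal. Without the Otx2 peak the domain held 1277 ± 74.8 and 1062 ± 78.0 CPM, or 83.2%. The Otx2 peak made up 36.4 ± 2.42% of the domain in controls and 35.6 ± 1.95% in cKO. The Otx2 share overlapped between the genotypes.

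On the 3′ side of Otx2, 2 intergenic peaks fell. The peak at -61 kb, assigned to the noncoding RNA Gm49120 (chr14:48602260-48610100), held 31.4, 61.0, 60.8, 45.5 and 53.0 CPM in control replicates 1 to 5 and 29.3, 31.6, 29.3, 33.0 and 35.7 CPM in cKO replicates 1 to 5. Control replicate 1, the heterozygote with Cre, lay among the cKO animals, and the other 4 controls lay above all of them. The means were 50.3 ± 12.4 CPM in controls, against 31.8 ± 2.70 CPM in cKO, a log2 fold change of -0.66 ± 0.14 (edgeR adjusted p = 0.00254). Without control replicate 1 it was -0.79 (adjusted p = 2.0e-05). The neighbouring peak at -53 kb, assigned to Gm35766 (chr14:48612930-48617300), held 22.9, 30.2, 32.6, 35.3 and 32.2 CPM in controls, against 16.5, 15.5, 24.1, 25.8 and 22.1 CPM in cKO. Control replicate 1, of batch 1, was the lowest control, below the 2 highest cKO animals, which are of batch 2. Within batch 1 it lay above both cKO animals. The batch term, batch 2 minus batch 1, was 0.45 ± 0.12 (edgeR adjusted p = 0.0142). The log2 fold change was -0.54 ± 0.11 (edgeR adjusted p = 0.00205; 0.0704 with no batch term).

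On the 5′ side of Otx2, along the Otx2os1 transcript, 3 further peaks fell. The peak at 71 kb, assigned to Gm49156 (chr14:48735830-48741650), held 87.1, 83.1, 95.5, 94.5 and 78.3 CPM in controls, against 51.2, 57.6, 72.3, 69.0 and 69.1 CPM in cKO. All cKO animals lay below all controls, and the log2 fold change was -0.46 ± 0.083 (edgeR adjusted p = 0.000777). The second Gm49156 peak, at 85 kb (chr14:48748310-48756450), held 152, 161, 168, 169 and 146 CPM in controls, against 139, 133, 139, 128 and 127 CPM in cKO, again with no overlap. Its log2 fold change was -0.26 ± 0.066 (edgeR adjusted p = 0.0128), and it was not called without control replicate 4 (0.0513) or with no batch term (0.0524). With the first duplicate of each animal only, it was -0.17 (edgeR adjusted p = 0.207). The peak at 41 kb, assigned to Gm49153 (chr14:48706840-48710990), held 48.3, 50.3, 55.4, 56.9 and 52.5 CPM in controls, against 38.9, 37.6, 43.0, 51.2 and 40.9 CPM in cKO, and only cKO replicate 4 reached the control range. It had -0.31 ± 0.086 (edgeR adjusted p = 0.0231), but lost the call in 10 of the 25 alternative settings. Among these were DESeq2 (0.163), 3 of the 10 fits that left out 1 animal, and batch 2 alone (0.109). Others were no batch term (0.105), the total count (0.058) and the first duplicate only (0.152).

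Farther out in the domain 4 more peaks fell. The pair of intergenic peaks at -249 and -246 kb, assigned to the pseudogene Gm3534, differed most between batches. The peak at -246 kb (chr14:48420730-48423250) held 5.48, 8.18, 30.0, 23.5 and 21.7 CPM in controls, against 2.13, 3.01, 13.3, 10.7 and 9.41 CPM in cKO, so batch 1 (replicates 1 and 2) was the low batch in both genotypes. Within each batch the cKO animals lay below the controls, and the log2 fold change, -1.20 ± 0.17 (2.29-fold lower, edgeR adjusted p = 6.5e-05), was the largest of the members. The batch term, batch 2 minus batch 1, was 1.97 ± 0.20 on the log2 scale, and with no batch term the peak was not called (adjusted p = 0.157). The peak at -249 kb (chr14:48416720-48420200) held 15.9, 18.2, 41.3, 39.2 and 33.5 CPM in controls, against 14.4, 13.0, 30.9, 22.3 and 24.5 CPM in cKO. It had -0.49 ± 0.12 (edgeR adjusted p = 0.00932) and a batch term of 1.06 ± 0.13, and it was not called with DESeq2 (0.0933), with no batch term (0.344), with the second duplicate only (0.0616) or in batch 1 alone (-0.31, 0.662).

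At the opposite edge, the 11.6 kb peak at 223 kb assigned to Gm534 (chr14:48884410-48896020) held 94.6, 104, 109, 116 and 106 CPM in controls, against 77.3, 75.1, 90.4, 90.0 and 95.9 CPM in cKO. The cKO animals were lower in each batch, although the ranges met across batches, and the log2 fold change was -0.31 ± 0.067 (edgeR adjusted p = 0.00423; 0.0729 with no batch term). The peak at -126 kb, within the body of Tmem260 and assigned to 4930572G02Rik (chr14:48537950-48545740), held 142, 142, 134, 137 and 117 CPM in controls, against 109.8, 114, 125, 116 and 103 CPM in cKO. Control replicate 5, at 117 CPM, lay within the cKO range. Its log2 fold change was -0.24 ± 0.072 (edgeR adjusted p = 0.0434). This adjusted p was the largest of the 12, and the call held in 2 of the 10 fits that left out 1 animal and not with DESeq2 (0.117). The call was lost in 17 of the 25 alternative settings.

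The other 5 peaks of the domain were not called. The longest peak of the members, 30.9 kb along Otx2os1 and assigned to Gm49152 (chr14:48792780-48823700), held 466 ± 21.2 CPM in controls, against 414 ± 29.0 CPM in cKO (-0.17 ± 0.062, edgeR adjusted p = 0.0957). At the Gm49155 peak (chr14:48850880-48855660) controls held 111 to 129 CPM and cKO 87.9 to 109.6 CPM, without overlap, yet the difference missed the threshold (-0.21 ± 0.068, edgeR adjusted p = 0.0565). The remaining 3, assigned to Tmem260 and Gm46453, held 5.33 to 15.2 CPM in controls. The largest positive value in the domain was 0.18 ± 0.26 at the Gm46453 peak chr14:48838360-48839940 (edgeR adjusted p = 0.757). Outside the domain, 8 peaks flanked it out to Peli2 and Armh4, of which 6 were tested and 0 called. The Gm23470 peak at 323 kb, with 9.65 CPM in controls, had the smallest adjusted p of these (-0.57 ± 0.19, edgeR adjusted p = 0.082). The strongest, a Peli2 peak with 204 CPM in controls, had -0.15 ± 0.07 (edgeR adjusted p = 0.217).

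**Figure D2:**
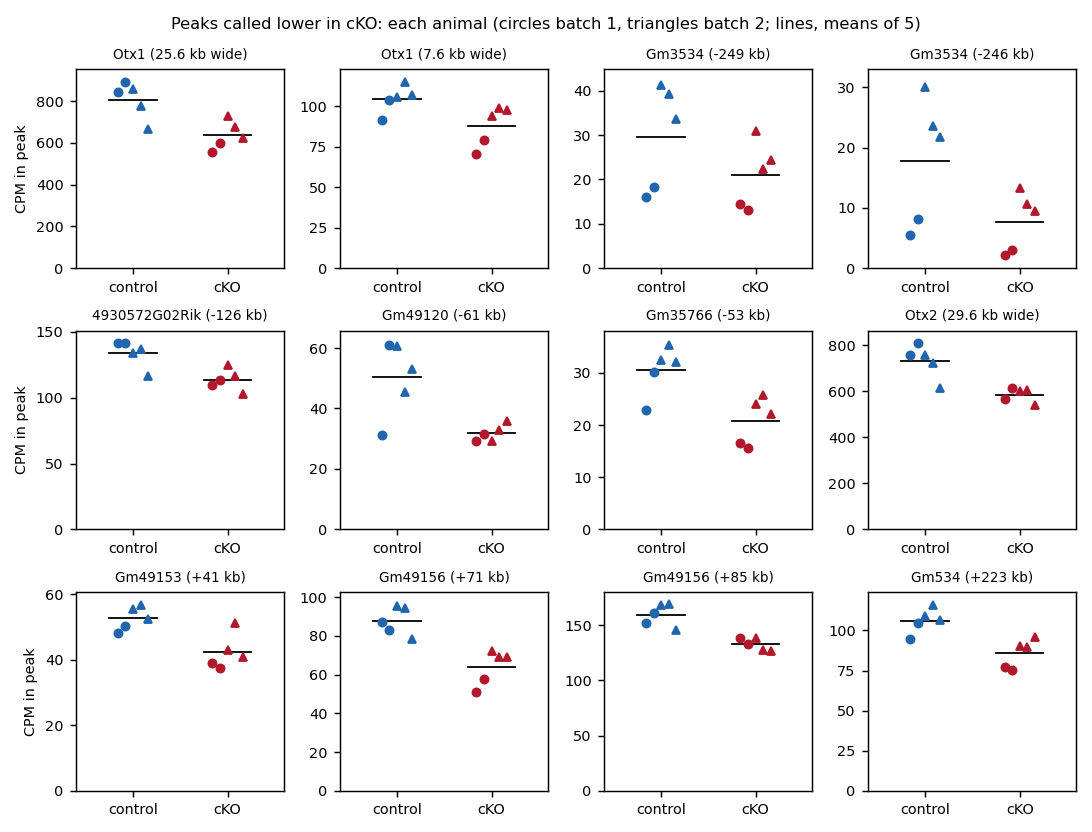
CPM of each animal at the 12 peaks called lower in cKO. Circles are batch 1, triangles batch 2 and lines the means of 5 animals, with every axis starting at 0. At 9 of these 12 peaks the cKO animals lie below the controls within both batches. The 12 were picked by calls on the same animals, so such a count is partly built in. Its share over all peaks was not counted. The Gm3534 panels show the gap between batches.

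Otx1, the paralog of Otx2 that acts in forebrain and sense organs, also carried a broad domain. Its promoter peak (chr11:21985520-22011150, 25.6 kb) also overlaps Ehbp1 and Gm32517, and it held 843, 891, 861, 777 and 668 CPM in controls. In cKO it held 559, 599.7, 731, 675 and 626 CPM. Control replicate 5 lay within the cKO range, and all other controls lay above it. The means were 808 ± 88.5 CPM in controls, against 638 ± 67.0 CPM in cKO, a log2 fold change of -0.34 ± 0.083 (edgeR adjusted p = 0.0102). The difference was -0.58 ± 0.072 in batch 1 and -0.19 ± 0.10 in batch 2, and the call was lost with no batch term (0.0615) and in each batch alone (0.0886 and 0.312). A second peak assigned to Otx1, 7.55 kb long in intron 14 of Ehbp1 (chr11:22073280-22080830), held 91.6, 104, 106, 115 and 107 CPM in controls, against 70.9, 79.2, 94.0, 98.9 and 97.8 CPM in cKO. It fell, with a log2 fold change of -0.24 ± 0.071 (edgeR adjusted p = 0.0328), but the call held in 5 of 10 fits without 1 of the animals and not with DESeq2 (0.129). It was lost in 14 of the 25 alternative settings, among them no batch term (0.2055) and the total count (0.0773). The third, in intron 20 of Ehbp1, held 8.80 ± 1.80 and 8.69 ± 0.86 CPM (-0.022 ± 0.17, edgeR adjusted p = 0.967). Summed over the 3 peaks Otx1 held 921 ± 81.1 CPM in controls, against 729 ± 84.8 CPM in cKO (-0.34 ± 0.08, edgeR adjusted p = 0.00703).

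Prdm1 (Blimp1), a zinc-finger repressor that holds Otx2-positive precursors on the photoreceptor path rather than the bipolar path, had 3 peaks and 0 calls. Its largest, 11.7 kb at the outer promoter (chr10:44522930-44534640), held 269, 265, 208, 205 and 197 CPM in controls, against 257, 269, 191, 199.6 and 183 CPM in cKO. Replicates 1 and 2 of both genotypes, which are batch 1, were above all of batch 2. The genotype difference was -0.064 ± 0.059 (edgeR adjusted p = 0.595), and the batch term, batch 2 minus batch 1, was -0.43 ± 0.06. The peak at the inner start site (chr10:44455430-44458470) held 31.9, 32.1, 13.8, 18.8 and 20.8 CPM in controls, against 33.6, 35.1, 14.9, 14.7 and 23.0 CPM in cKO. The same split appeared there, with a batch term of -0.92 ± 0.14 and a genotype difference of 0.039 ± 0.14 (edgeR adjusted p = 0.913). The intergenic peak at chr10:44537860-44540720 had 0.05 ± 0.15 (edgeR adjusted p = 0.92). Its batch term was -0.064 ± 0.16 (edgeR adjusted p = 0.904), so the batch term was called at 2 of the 3 Prdm1 peaks, and no Prdm1 peak was called between genotypes.

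Crx, the Otx relative that switches on most photoreceptor genes, had no peak. The nearest, assigned to Obox6, lay 19.7 kb from its gene body (chr7:15865947-15879955) and was too low to be tested. Nr2e3, the nuclear receptor that silences cone genes in rods, had none either (chr9:59942771-59960834), and the nearest, 221 kb away and assigned to Gramd2, was not called (edgeR adjusted p = 0.82). No called peak is not the same as no mark, since peaks were called upstream of these counts with settings not given in the sources used here.

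Nrl, the leucine-zipper factor that sets the rod fate, had 2 weak peaks. The promoter peak (chr14:55519690-55523550) held 19.4, 22.7, 18.8, 15.3 and 19.0 CPM in controls, against 19.2, 21.0, 16.5, 19.6 and 24.0 CPM in cKO. The peak upstream (chr14:55528950-55532940) held 29.4, 23.3, 25.0, 27.8 and 29.9 CPM in controls, against 30.4, 29.6, 28.1, 25.8 and 26.8 CPM in cKO. Both sets overlapped, with 0.086 ± 0.13 (edgeR adjusted p = 0.781) and 0.046 ± 0.10 (edgeR adjusted p = 0.878).

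Thrb, the thyroid hormone receptor that gives cones their M-opsin identity, has a gene of 381 kb and a single peak of 1.46 kb near its first start (chr14:17661790-17663250). It held 14.4, 14.5, 14.8, 13.7 and 14.9 CPM in controls, against 14.4, 12.0, 9.24, 15.1 and 11.8 CPM in cKO. The controls lay close together within the wider cKO range of 9.24 to 15.1 CPM, and the difference was -0.22 ± 0.15 (edgeR adjusted p = 0.47). Rxrg, a retinoid X receptor of cones, had a promoter peak (chr1:167597320-167600450) with 22.4, 25.8, 27.1, 29.0 and 31.2 CPM in controls, against 17.6, 17.5, 32.2, 26.7 and 26.3 CPM in cKO. In batch 1 both cKO animals were below both controls (-0.45 ± 0.17), whereas in batch 2 they overlapped (-0.033 ± 0.14). Over both batches the difference was -0.15 ± 0.11 (edgeR adjusted p = 0.569), with a batch term of 0.48 ± 0.12. The second Rxrg peak, intergenic (chr1:167641990-167645900), held 24.4, 25.2, 21.0, 23.1 and 29.4 CPM in controls, against 18.1, 19.0, 20.5, 20.0 and 27.3 CPM in cKO, with cKO replicate 5 apart from the other cKO animals. It had -0.21 ± 0.13 (edgeR adjusted p = 0.365).

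Gnat1, the rod transducin alpha subunit, had the largest positive difference of the members. Its peak (chr9:107675800-107677980) held 23.9, 25.8, 16.3, 13.7 and 15.4 CPM in controls, against 23.4, 32.1, 22.1, 23.2 and 21.6 CPM in cKO. All batch 2 controls were below all cKO animals, while the batch 1 controls lay within the cKO range. The difference, 0.39 ± 0.12, missed the threshold (edgeR adjusted p = 0.0518). It was 0.17 ± 0.20 in batch 1 and 0.55 ± 0.18 in batch 2, where it passed (adjusted p = 0.0472), and it also passed without cKO replicate 1 (0.0125), without control replicate 2 (0.0438), with sex as a further term (0.041) and with the total count (0.0323). It lay farther from the threshold with DESeq2 (0.339), with no batch term (0.257), with the first (0.175) or second (0.262) duplicate only, and without cKO replicate 2 (0.153), the animal with the highest value. The batch term was -0.50 ± 0.13.

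**Figure D3:**
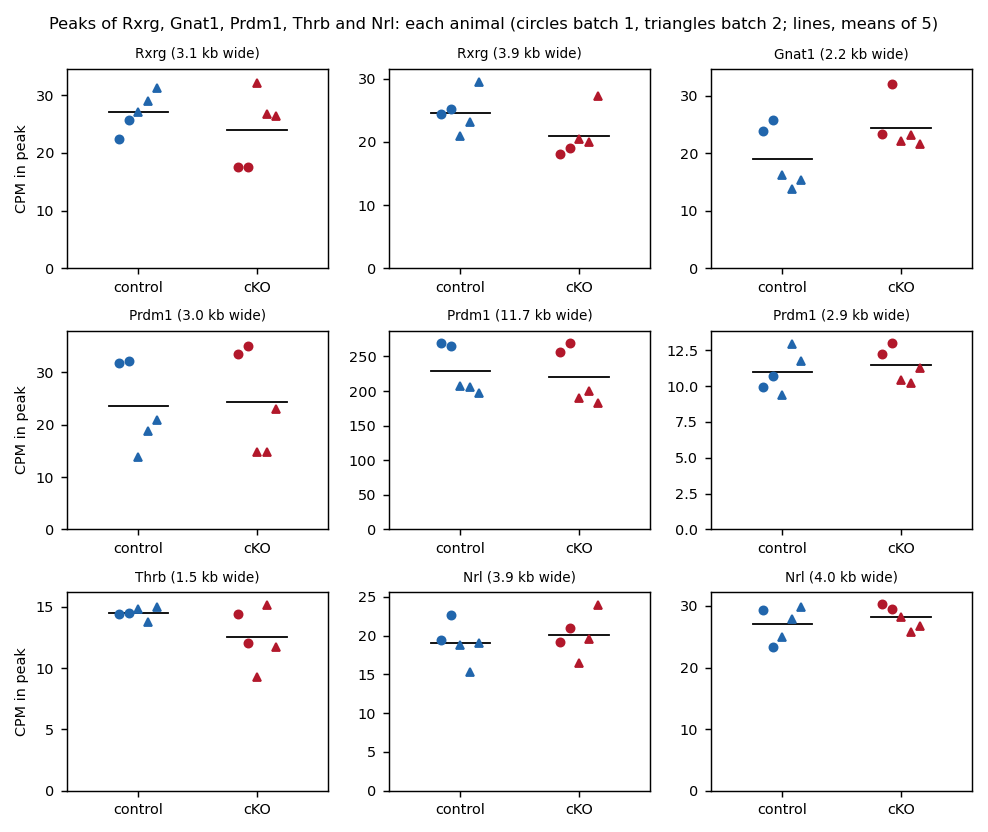
CPM of each animal at the 9 peaks of Rxrg, Gnat1, Prdm1, Thrb and Nrl, drawn as circles (batch 1) and triangles (batch 2) with lines at the means of 5 animals and axes from 0. Controls and cKO overlap in every panel, and the 11.7 kb and 3.0 kb Prdm1 peaks separate the batches.

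Per kb of peak, the control level put the members in the order Otx1 promoter (31.5 CPM per kb), Otx2 (24.7), Gm49155 (24.2), the second Gm49156 peak (19.6) and the large Prdm1 peak (19.5). Otx2 and Gm49155, and then Gm49156 and Prdm1, differed by less than 1 SD between animals, and Otx1 stood above Otx2 by more than that. Thrb (9.91), Gnat1 (8.72) and the Rxrg promoter (8.66) came well below, and the Nrl promoter (4.93) was lower still. Of the calls by level, 9 of the 12 members with at least 50 CPM in controls were called lower, against 14.9% of 4226 peaks of that level, and 3 of the 15 below it were, against 4.77% of such peaks. The members of at least 50 CPM that were not called were Gm49152 (466 CPM in controls), the large Prdm1 peak (229) and Gm49155 (116).

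Several members also differed between the batches. The batch term was called at 8 of the 27 members, 3 higher in batch 1 and 5 higher in batch 2, against 12.3% of all peaks in either direction. Those higher in batch 1 were the 2 Prdm1 peaks above and Gnat1, and those higher in batch 2 were the Rxrg promoter, the Ehbp1 intron 14 peak of Otx1, both Gm3534 peaks and Gm35766. For the difference in genotype effect between batches, 0 members were called (edgeR interaction term, adjusted over 16307 peaks, of which 2 were called). The Otx1 promoter alone had an unadjusted p under 0.05 (0.0157).

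**Figure D4:**
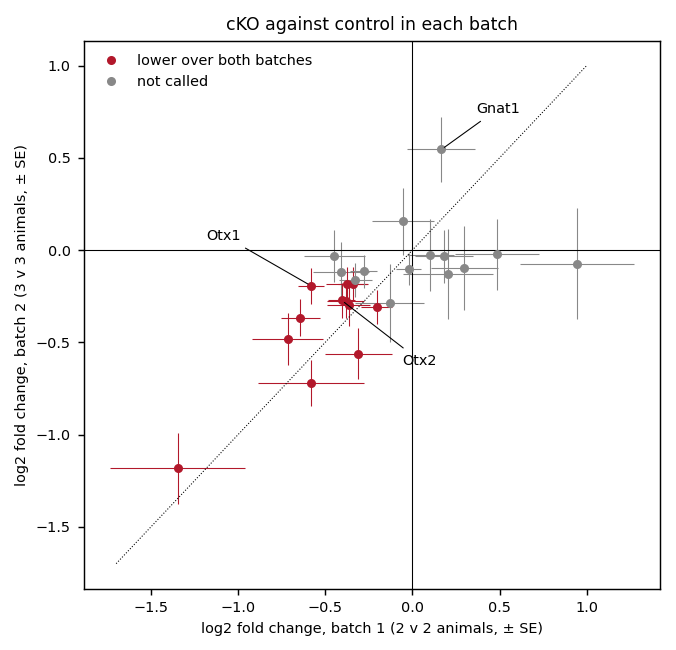
Log2 fold change (cKO over control, with SE) in batch 1 (2 against 2 animals) and batch 2 (3 against 3) for 26 members, with 1 Gm46453 peak not tested in batch 1. The dotted line marks equal values, and the 12 peaks called over both batches (red) lie below 0 on both axes. They were picked by calls on the same animals, so this is partly built in.

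Genes were also ranked by how closely their signal followed that of Otx2 from animal to animal. On log2 CPM minus the batch mean, over 10 animals, the 5 genes most like Otx2 were Sox5os2 (Pearson r = 0.994), Lmo3 (0.987), Cnr1 (0.984), Gm4052 (0.984) and Gm36991 (0.984). Among the members Otx1 followed Otx2 (0.962). Prdm1 (0.625), Rxrg (0.506) and Thrb (0.416) did so less, and Gnat1 (-0.478) and Nrl (-0.64) ran opposite. These values describe 10 animals whose libraries share depth, scaling and genotype. The genotype difference was not removed, so each r includes it, and the 5 genes are the highest of those ranked, chosen for that.

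The other genes of the programme were counted on sums per gene, against 8.29% lower and 1.48% higher among all genes and a median log2 fold change of 0.015. Of 21 further regulators of photoreceptor fate, 18 had a peak, 17 were tested, 2 were lower and 0 higher (median -0.098). Rora, a nuclear receptor that drives S-opsin and cone genes, fell from 319.8 ± 44.7 to 246 ± 47.7 CPM (-0.38 ± 0.062, edgeR adjusted p = 3.7e-04). Mef2c, a MADS-box factor, fell from 1745 ± 73.4 to 1462 ± 50.3 CPM (-0.26 ± 0.057, edgeR adjusted p = 0.00566) with no overlap between genotypes. The bHLH factor Neurod1, which many photoreceptors need, held 326 ± 19.5 CPM in controls, against 292 ± 11.9 CPM in cKO (-0.16 ± 0.057, edgeR adjusted p = 0.0908).

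Of 27 rod and shared outer segment genes, 9 had a peak and 0 were called by edgeR, with 3 at an unadjusted p under 0.05 and a median of 0.038. The other 18 had no peak. The 3 were the transporter Abca4 (-0.17 ± 0.058, edgeR adjusted p = 0.0746), the channel subunit Cngb1 (0.63 ± 0.23, 0.11) and the phosphodiesterase Pde6a (0.75 ± 0.32, 0.17), of which the last 2 had only 4.16 and 3.02 CPM in controls. Of 15 cone genes, Thrb and Rxrg included, 9 had a peak and 0 were called, with 1 at an unadjusted p under 0.05 (median -0.091). That gene was the S-opsin Opn1sw, with 83.7 ± 8.27 CPM in controls, against 94.5 ± 6.23 CPM in cKO (0.18 ± 0.075, edgeR adjusted p = 0.154). From these lists, results of other tools are given only for the sums of Thrb and Rxrg, and neither was called with DESeq2 or limma-voom.

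Otx2 also acts in bipolar cells, pigment epithelium and pineal gland. Of 16 bipolar genes, 12 had a peak, 10 were tested, 1 was lower and 0 higher (median -0.065). Bhlhe22, a bHLH factor of bipolar and amacrine subtypes, fell from 335 ± 35.1 to 291 ± 42.0 CPM (-0.21 ± 0.063, edgeR adjusted p = 0.0419). The channel gene Trpm1 (-0.20 ± 0.13, edgeR adjusted p = 0.421) and Prdm8 (-0.069 ± 0.055, 0.509) were not called. Of 10 pigment epithelium and pineal genes, 3 had a peak and 1 was lower. That was Mitf, the master factor of pigment cells and a partner of Otx2, at 175 ± 4.70 CPM in controls, against 154 ± 6.32 CPM in cKO (-0.19 ± 0.053, edgeR adjusted p = 0.0282). Its genotypes did not overlap. The melanin enzyme Dct (-0.13 ± 0.054, edgeR adjusted p = 0.159) and Tph1 (-0.029 ± 0.058, 0.824) were not called. Each of these counts is small, and the differences between lists were not tested.

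**Figure D5:**
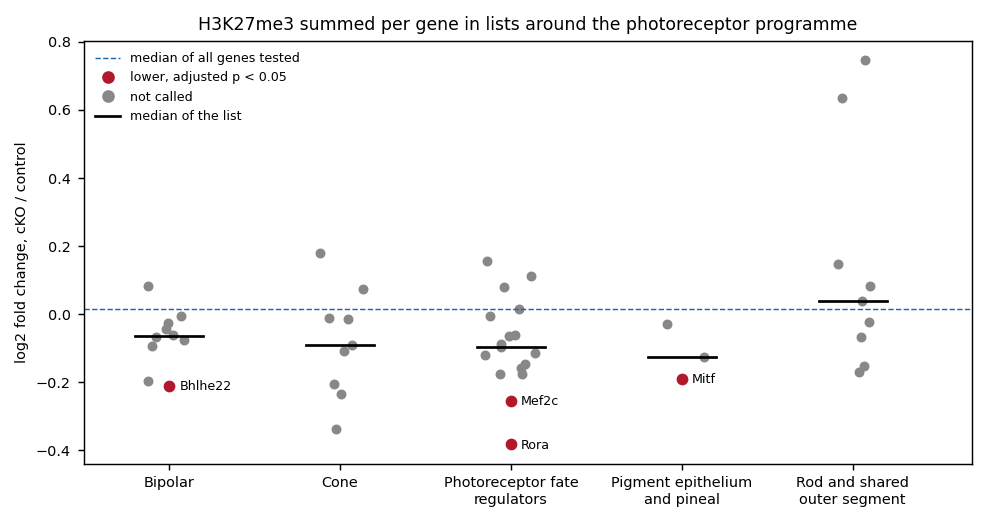
Log2 fold change (cKO over control) of H3K27me3 summed per gene in 5 gene lists. Each point is a tested gene (red, called lower; grey, not called), short lines are list medians and the dashed line is the median of all genes, 0.015; the 4 genes called are Bhlhe22, Mef2c, Rora and Mitf.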

How the data were processed

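H3K27me3 was measured in the retinas of 10 mice. Of the 22 libraries in the labels, the 16 H3K27me3 libraries were used, and 6 IgG libraries are not analysed here. The authors deposited counts of reads or fragments in 1 set of broad peaks, with 1 column for each library. The submitters' processing notes name Novoalign 4.02.02, SAMtools, MACS2, DESeq2 1.38.1 and mm10. Not given in the sources used here are what each did, how peaks were called and on which libraries. The same table, per the file headers, holds the authors' mean signal, log2 fold change, test score and p-value (raw and adjusted) for a contrast it does not name. Over 16307 peaks, which are not independent replicates, the deposited log2 fold change followed batch 1 minus batch 2 (Pearson r = 0.999) rather than cKO minus control (0.347), so it was not used for genotype.

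Technical duplicates of the batch 2 animals were summed, since all 6 pairs agreed within counting noise (chi-square over its degrees of freedom of 0.881 to 0.997, and 1.05 to 2.53 between animals of a group and batch). Reads were filtered with filterByExpr, scaled with TMM and tested with edgeR 4.0.16 quasi-likelihood tests (R 4.3.3) that included batch, with p-values adjusted by Benjamini-Hochberg over all tested peaks. A call is an adjusted p under 0.05. SE is the size of the log2 fold change divided by the square root of F. Reads were also summed per assigned gene. The steps were tested on simulated data. Distances, promoters and gene bodies came from RefSeq GRCm38.p6, the assembly that mm10 represents. Coordinates are 1-based as deposited.

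The members and gene lists were chosen with earlier results of these data known. Named were all called members, the strongest and the start-site peak of each member gene, the extremes of the domain, up to 3 genes with the smallest p per list, and the 5 genes most like Otx2. Alternatives were other scalings, no filter, DESeq2 1.42.0, limma-voom (limma 3.58.1), no batch term, a replicate block, a sex term, single batches or duplicates, other thresholds, RefSeq gene bodies and leaving out each animal. A loess offset on level was chosen after seeing the data. Figures were drawn with matplotlib 3.10.9.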

Additional observations from a re-analysis of the deposited data

Results flagged for a closer look

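Each member peak was checked for a single animal far from the other 4 of its genotype. Of 54 groups of 5 animals, 3 held one, and chance alone gives about 1 in 20. At the intergenic Rxrg peak cKO replicate 5 held 27.3 CPM, while the other cKO animals held 18.1 to 20.5 CPM. At the Gnat1 peak cKO replicate 2 held 32.1 CPM, against 21.6 to 23.4 CPM in the other cKO animals. At the Gm49155 peak control replicate 3 held 129 CPM, against 111 to 113 CPM in the other controls. None of these 3 peaks was called by edgeR in either direction.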

How the results depend on the processing

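The count of member peaks lower in cKO, 12, was 0 in batch 1 alone (edgeR). There 11 members had an unadjusted p under 0.05 in either direction, but the share of all peaks at that p was not counted. The count was 6 in batch 2 alone, 3 with no batch term and 7 at a threshold of 0.01. Of all peaks tested, 5.92%, 2.19% and 4.86% were lower in these settings. When 1 animal was left out the count was 8 to 14 (8 without control replicate 4), against 5.64% to 8.47% of all peaks tested. The member called higher, Gnat1, made that count 1 in batch 2 alone, with a sex term, with the total count and at a threshold of 0.1, and 0 to 1 when 1 animal was left out. All peaks called, 1442, came to 863 with DESeq2, 0 in batch 1 alone, 364 with no batch term and 839 at 0.01, and to 1090 to 1617 when 1 animal was left out. The Otx2 sum was -0.42 in batch 1 alone (edgeR adjusted p = 0.116) and -0.38 to -0.3 when 1 animal was left out. With a replicate block in place of batch, 12 members and 1331 peaks were called, and every one of the 12 was kept. Correlations of deviations between same-numbered animals were -0.445 for both pairs of batch 1 and 0.0142 to 0.0948 in batch 2. In batch 1 the deviations of 2 animals mirror each other, so its pairs give a single value. Its same-numbered animals also differ in sex. No same-numbered pair had a clear positive correlation, and other pairings were not tested. The block changed no call of a named member.

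Signs reversed only at peaks not called: the Gm46453 peak at 48838360 (-0.073 in batch 2 alone), the Nrl promoter peak (-0.055 in batch 1 alone, -0.026 to 0.15 when 1 animal was left out, lowest without cKO replicate 5), the other Nrl peak (-0.034 in batch 2 alone, -0.011 to 0.074 when 1 animal was left out, lowest without control replicate 2) and the inner Prdm1 peak (-0.028 in batch 2 alone, -0.075 to 0.099 when 1 animal was left out, negative without cKO replicate 5 and, at -0.037, without control replicate 3). The cause was not tested. Over named members and alternatives, 562 values kept their direction and side of the threshold, 68 lost the call, 10 gained one and 8 reversed. Read depth and 5 animals per genotype limit small differences at weak peaks such as those of Thrb and Nrl.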

Other observations

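In the authors' deposited table the large Prdm1 peak has 0.41 as its log2 fold change (adjusted p 2.9e-10) and the inner Prdm1 peak 0.91 (adjusted p 7.5e-06). The authors' deposited table has -1.07 and -1.99 for the Gm3534 peaks and 0.077 for the Otx2 peak (adjusted p 0.611). The batch terms of the same peaks from the counts, batch 2 minus batch 1, were -0.43 and -0.92 for Prdm1, 1.06 and 1.97 for Gm3534 and -0.091 for Otx2, of similar size and opposite sign.

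Control replicate 1 is the only control with Cre and 1 floxed allele. Over the 27 members it was the lowest control at 11 and the highest at 2, while the other controls were lowest at 2 to 7 each. It is also a batch 1 animal. At each of the 5 members called higher in batch 2 it was the lowest control, so this count mixes batch with genotype. At the Otx2 peak, with 756 CPM, it lay near the control mean of 731 CPM. With 1 such animal no test of that genotype was made.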
